A study of Mus musculus with 18 samples.

Results

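The genes described here make the proteins of blood clotting, of its control and of the removal of clots. They are 35 genes taken by symbol from a table of 37303 genes in mouse liver. The list was drawn up with earlier results of these data known. All 35 symbols were found, on 36 rows, since *Vkorc1* stands on 2 of them. By role they were fibrinogen with the enzyme that cross-links it, the vitamin K dependent clotting factors, the cofactors with the initiator tissue factor, the contact system, the anticoagulants, the fibrinolytic genes, and the genes that carboxylate or export clotting factors.

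Most clotting proteins are made in hepatocytes and leave the cell as inactive precursors. Tissue factor with factor VII, or the contact system by way of factors XII and XI, activates factor X, which turns prothrombin into thrombin, and thrombin turns fibrinogen into the fibrin of a clot. Protein C, protein S, protein Z and tissue factor pathway inhibitor hold this cascade back, and plasmin dissolves fibrin. Treatment with asparaginase, an enzyme drug that removes asparagine and some glutamine from the blood, is known for low plasma levels of several of these proteins. Plasma was not measured here, and every value below is a level of mRNA in liver.

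The study asked what the kinase GCN2, which senses a shortage of amino acids, and the transcription factor ATF4, which acts after it, do for the liver during ASNase. RNA-Seq was run on livers of 18 mice on the C57BL/6J background, with 3 mice in each of 6 groups. WT mice, mice with a *Gcn2* deletion (*Gcn2*-/-) and mice with an *Atf4* deletion (*Atf4*-/-) received 8 daily intraperitoneal injections of ASNase at 3 IU per gram body weight or of phosphate buffered saline (PBS), and livers were taken 7.5 h after the last one. The mice were at least 8 weeks old, and the labels give an upper age of 12 weeks in one field and of 16 weeks in another. Both deletions are of the whole body, so that every cell type of the liver carries them, and loss of *Atf4* is known to change body fat, bone and blood cell development as well. Males numbered 1 of 3 among WT PBS, *Gcn2*-/- PBS and *Gcn2*-/- ASNase mice and 2 of 3 among WT ASNase, *Atf4*-/- PBS and *Atf4*-/- ASNase mice.

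Each group had 1 value per gene, which Cuffdiff estimated from its 3 libraries together as FPKM, the number of fragments scaled to the length of the transcript and to the size of the library, with the lower and upper bound of an interval. No value of a single mouse was used, so there was no replicate check and no p-value, and the interval served as the error. For the member rows over 3 FPKM, the median distance from the value to its upper bound was between 51.7% and 58.1% of the value, depending on the group, so that only large differences stood clear of the error. A comparison took in those genes whose 2 values were above 0 with status OK, at least 1 of them over 3 FPKM, and these are termed eligible. A gene was called higher or lower when in addition log2(FPKM + 0.1) differed by more than 1.5 and the intervals of the 2 values did not overlap. The study, which used a q value, reported more genes changed with ASNase in each strain than this rule called. The pseudocount of 0.1 makes the log2 differences of the lowest genes too small.

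The gene values did not check the deletions. *Eif2ak4*, which encodes GCN2, was at 3.04 FPKM in WT PBS, 2.31 in *Gcn2*-/- PBS and 2.19 in *Atf4*-/- PBS. *Atf4* was at 50.4 FPKM in WT PBS, 60.0 in *Gcn2*-/- PBS and 32.3 in *Atf4*-/- PBS. A gene value sums all exons, also those that a deletion leaves in place, and the strains are therefore named as the labels name them. The study itself checked the deletions with plots of RNA read density. It reported an exon of *Gcn2* absent in *Gcn2*-/- mice and *Atf4* absent in *Atf4*-/- mice, and also measured *Atf4* by RT-qPCR.

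Of the 36 rows, 31 were over 3 FPKM in at least 1 group. The rows never over 3 FPKM were *F13a1*, *Plat*, *Plau*, *Plaur* and the second *Vkorc1* row. In WT PBS livers, 16 members were over 100 FPKM. *Fgb* led at 2579 FPKM, the 27th highest of all genes with an estimate, followed by *Fgg* at 2288, *Fga* at 1348, *Kng1* at 1114, *F2* at 844 and *Plg* at 769.8. At the other end of the 28 members over 3 FPKM in that group stood *Tfpi* at 4.36 FPKM, *F8* at 3.35 and *Vwf* at 3.02, genes known to be made largely by endothelial cells. Neighbours in this order could hardly be told apart: the intervals overlapped for 26 of 27 neighbouring pairs, and the exception was *Ggcx* at 19.0 against *Tfpi*.

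**Figure D1:**
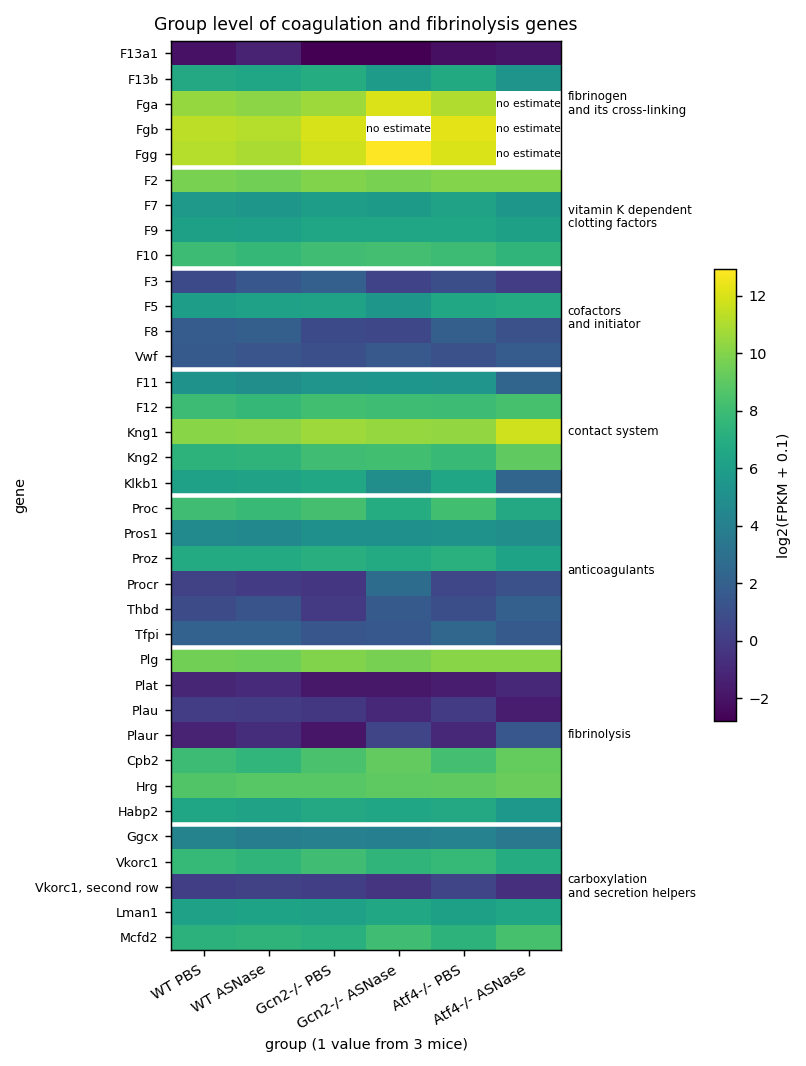
Level of each member in the 6 groups, as log2(FPKM + 0.1) in colour, with genes in rows grouped by role and groups in columns, 1 value from 3 mice each. The fibrinogen chains, *Kng1*, *F2* and *Plg* are the brightest rows, *Fga*, *Fgb* and *Fgg* have no estimate in *Atf4*-/- ASNase, and *F11* and *Klkb1* are dark in that group alone.

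ASNase moved few members past these limits, none in WT livers and 2 in each knockout strain. In WT livers 0 of 28 eligible members were called, and all 28 stayed within a log2 difference of 1, between -0.44 and 0.19. In *Gcn2*-/- livers 2 of 27 rose, the anticoagulant receptors *Procr* and *Thbd*, both of which passed the limit of 3 FPKM through the ASNase group alone. In *Atf4*-/- livers 2 of 26 fell, the contact system protease gene *F11* and the row named *Klkb1*, which overlaps other genes as described below.

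These counts stand beside the shares of all genes called. With ASNase 0.881% of the 9084 genes eligible in WT livers were called, 0.76% higher and 0.121% lower. In *Gcn2*-/- livers 3.69% of 9218 were called, 1.56% higher and 2.13% lower, against 7.41% of the members. In *Atf4*-/- livers 7.37% of 9485 were called, 2.74% higher and 4.63% lower, against 7.69% of the members. The share of members called in *Atf4*-/- livers was thus near that of all genes, and 2 genes are too few to set the share in *Gcn2*-/- livers apart. Intervals that did not overlap at any size of difference were found for 1.01%, 4.24% and 8.03% of all eligible genes in WT, *Gcn2*-/- and *Atf4*-/- livers, and for 0, 2 and 2 members, the same as those called.

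The median log2 difference with ASNase over the eligible members was -0.18 for WT, -0.04 for *Gcn2*-/- and -0.28 for *Atf4*-/- livers, beside -0.01, 0.02 and 0.08 over all eligible genes. In WT livers 19 of 28 members were below 0, in *Gcn2*-/- livers 15 of 27 and in *Atf4*-/- livers 15 of 26. A further 6 members differed by more than 1 without separate intervals in *Gcn2*-/- livers, and 6 did so in *Atf4*-/- livers. *F13b* and *Proc* were among these in both strains, with lower values under ASNase.

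**Figure D2:**
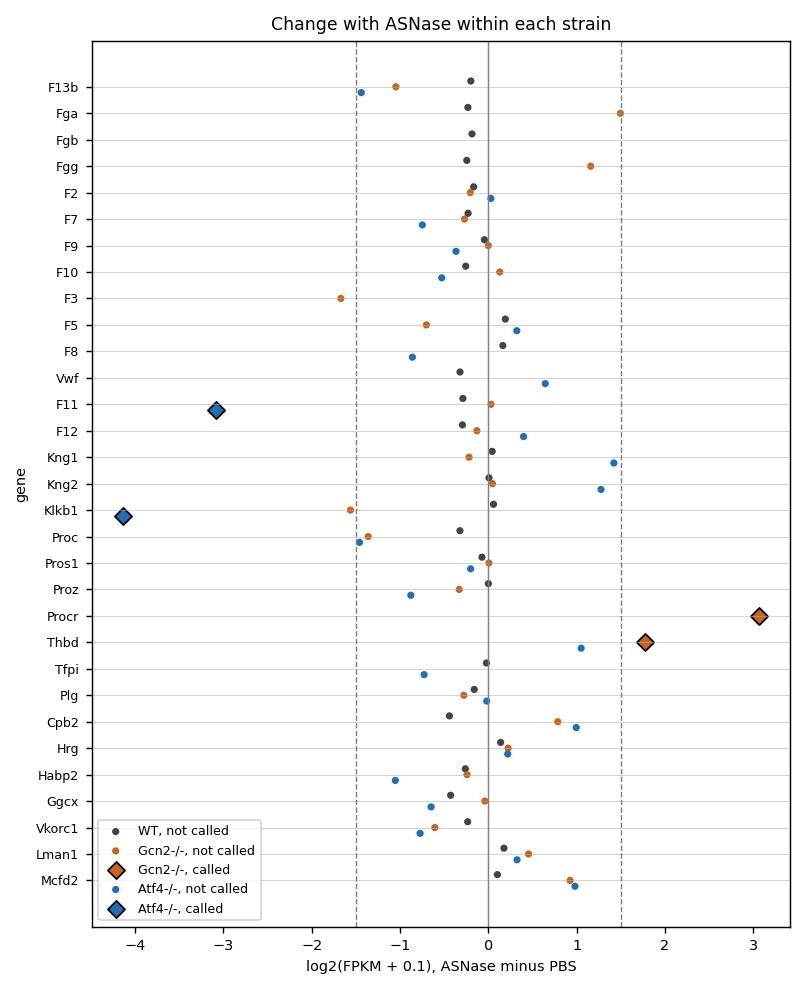
Difference of log2(FPKM + 0.1) between ASNase and PBS for each eligible member in WT, *Gcn2*-/- and *Atf4*-/- livers, with dashed lines at -1.5 and 1.5 and diamonds for called members. The WT points lie between -0.44 and 0.19, while *Procr* reaches 3.06 in *Gcn2*-/- livers and *F11* and *Klkb1* reach -3.09 and -4.13 in *Atf4*-/- livers.

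The largest differences with ASNase were those of *F11* and of the row named *Klkb1*, both placed in the contact system. That row overlaps other genes, and the difference of *Procr* in *Gcn2*-/- livers was close in size to that of *F11*. *F11* encodes factor XI, the protease that activates factor IX. It was at 37.3 FPKM under PBS and 30.5 under ASNase in WT livers, at 42.1 and 43.1 in *Gcn2*-/- livers, and at 42.4 and 4.89 in *Atf4*-/- livers. The other 5 groups lay between 30.5 and 43.1 FPKM, and the *Atf4*-/- ASNase group lay below all of them with an interval of 2.43 to 7.34, while the lowest bound among the others was 17.7. Within *Atf4*-/- livers *F11* fell 8.67-fold (log2 difference -3.09), and it was also lower in *Atf4*-/- ASNase than in WT ASNase (-2.62) and than in *Gcn2*-/- ASNase (-3.11). The change with ASNase differed by -2.80 between *Atf4*-/- and WT livers, with an error of 1.26 from the intervals of the 4 values, and by -3.12 between *Atf4*-/- and *Gcn2*-/- livers, with an error of 1.26. Between *Gcn2*-/- and WT livers it differed by 0.32, with an error of 1.20.

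*Klkb1* encodes plasma prekallikrein, which factor XII activates and which in turn activates factor XII. The row named *Klkb1* was at 74.0 FPKM under PBS and 77.1 under ASNase in WT livers, at 93.1 and 31.5 in *Gcn2*-/- livers, and at 87.4 and 4.89 in *Atf4*-/- livers. It fell 17.9-fold in *Atf4*-/- livers (log2 difference -4.13), and was lower there than in WT ASNase (-3.95). The margin was thin, since the upper bound of 11.5 FPKM in *Atf4*-/- ASNase came close to the lower bounds of 12.3 in *Atf4*-/- PBS and 12.2 in WT ASNase. The change differed by -4.19 between *Atf4*-/- and WT livers, with an error of 2.93, and by -2.57 between *Atf4*-/- and *Gcn2*-/- livers, less than its error of 3.02. In *Gcn2*-/- livers the difference was -1.56, and its intervals of 23.2 to 163 and 0 to 67.5 FPKM overlapped.

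The *Klkb1* row needs care. Its identifier, ENSMUSG00000031640, is named *Gm45753* in the GENCODE M21 annotation of mm10, a transcript unit at chr8:45269671-45308466 that overlaps both *Klkb1* (chr8:45266689-45294859) and *Cyp4v3* (chr8:45304944-45333216) on the same strand. *Cyp4v3*, a fatty acid hydroxylase gene with which the row shares its Cuffdiff locus, was at 103 FPKM in *Atf4*-/- PBS and 20.9 in *Atf4*-/- ASNase (log2 difference -2.30), and its intervals of 37.8 to 169 and 11.5 to 30.4 did not overlap. Of the windows of 100 bases in *Klkb1* transcripts, 42.1% also occur in *Gm45753*. How Cuffdiff shared reads among these genes was not tested. *F11* stands free of this: it lies 4657 bases from *Klkb1* on the same strand of chromosome 8 (chr8:45241174-45262031), has a Cuffdiff locus of its own and shares no window of 100 bases with another gene. Without the *Klkb1* row and both *Vkorc1* rows, 1 member was called in *Atf4*-/- livers, *F11*.

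The promoters of *F11* and *Klkb1* are shown because *F11* and the row named *Klkb1*, which covers part of the adjacent *Klkb1* gene, both fell in *Atf4*-/- livers. Which of the overlapping genes the fall of that row belongs to was not tested. Each sequence is the RefSeq window of 300 bases on GRCm38.p6, from 250 bases before the transcription start to 50 after it, 5′ to 3′ on the strand of the gene. Capitals mark letters found on either strand for 6 motifs: CTGGGAA, an element bound by STAT3 after IL-6, TTNCNNAA for C/EBP factors, TGATGNAA for pairs of a C/EBP factor and ATF4, the HNF1 motif, CAAAGTCCA for HNF4, and TGACGTG for ATF6 and XBP1. The HNF1 motif is GTTAAT, then any base, then ATTAAC. The *F11* window is chr8:45261982-45262281 and the *Klkb1* window chr8:45294786-45295085, both on the minus strand.
F11: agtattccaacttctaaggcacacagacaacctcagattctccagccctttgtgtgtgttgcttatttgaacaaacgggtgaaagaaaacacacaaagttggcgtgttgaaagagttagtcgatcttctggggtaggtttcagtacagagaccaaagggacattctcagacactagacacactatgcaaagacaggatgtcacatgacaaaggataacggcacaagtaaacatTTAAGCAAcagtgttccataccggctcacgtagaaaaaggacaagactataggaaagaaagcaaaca
Klkb1: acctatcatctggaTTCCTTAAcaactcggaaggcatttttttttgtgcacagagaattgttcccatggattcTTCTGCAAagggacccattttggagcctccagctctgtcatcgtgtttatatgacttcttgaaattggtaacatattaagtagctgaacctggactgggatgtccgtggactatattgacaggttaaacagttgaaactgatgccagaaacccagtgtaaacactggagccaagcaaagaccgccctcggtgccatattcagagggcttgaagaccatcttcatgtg
The *F11* window held 1 C/EBP match, from position -17 to -10 with the first transcribed base at 0, and the *Klkb1* window held 2, at -236 to -229 and at -177 to -170. Such matches are common, as 40.7% of 32851 RefSeq promoter windows held at least 1. Neither window held the letters for C/EBP with ATF4, which 3.97% of all windows held. A match is a description of letters and not a binding site.

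**Figure D3:**
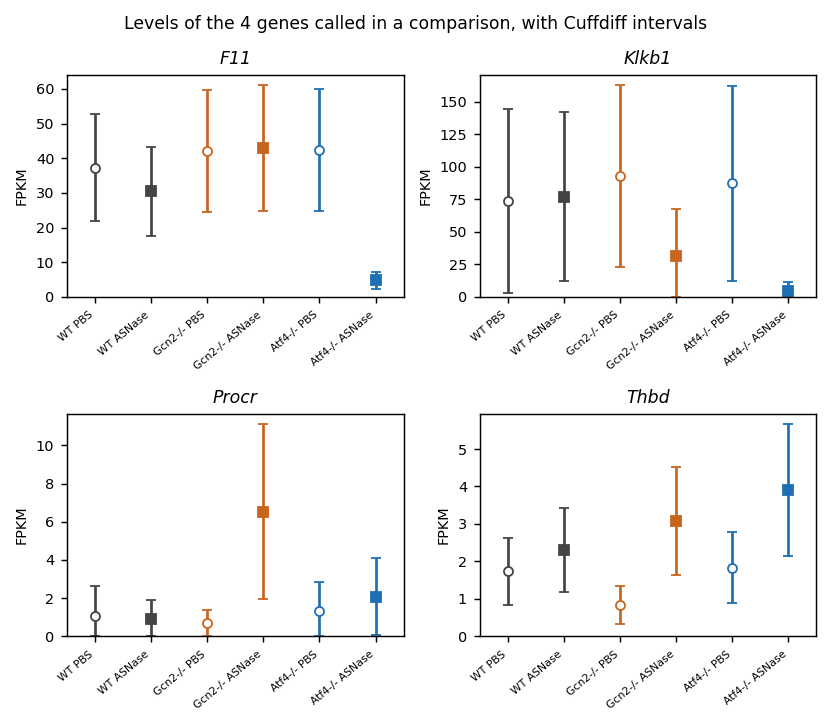
FPKM of *F11*, *Klkb1*, *Procr* and *Thbd* in the 6 groups, open circles for PBS and filled squares for ASNase, with vertical bars for the Cuffdiff interval of each value from 3 mice. *F11* and *Klkb1* both stand at 4.89 FPKM in *Atf4*-/- ASNase, *Procr* stands at 6.51 in *Gcn2*-/- ASNase, and *Thbd* is highest in *Atf4*-/- ASNase at 3.90.

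The other contact system genes did not fall in *Atf4*-/- livers. *F12*, which encodes factor XII, was at 249 FPKM under PBS and 203 under ASNase in WT livers, at 281 and 257 in *Gcn2*-/- livers, and at 247 and 326 in *Atf4*-/- livers, so that *Atf4*-/- ASNase held its highest value. The ratio of *F12* to *F11* lay between 5.84 and 6.67 in the other 5 groups and was 66.7 in *Atf4*-/- ASNase. *Kng1*, which encodes kininogen, the cofactor of prekallikrein and the source of bradykinin, was at 1114 FPKM under PBS and 1148 under ASNase in WT livers, at 1592 and 1368 in *Gcn2*-/- livers, and at 1303 and 3492 in *Atf4*-/- livers. The second kininogen gene, *Kng2*, was at 167 and 168 FPKM in WT, at 271 and 280.2 in *Gcn2*-/- and at 223 and 541 in *Atf4*-/- livers.

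Both kininogen genes thus had their highest value in *Atf4*-/- ASNase, 2.68-fold that of *Atf4*-/- PBS for *Kng1* and 2.42-fold for *Kng2*. Neither was called, because the intervals overlapped: 0 to 7459 FPKM against 282 to 2325 for *Kng1*, and 227 to 854 against 119 to 327 for *Kng2*. *Kng1* and *Kng2* lie 28382 bases apart on chromosome 16 and share 4.93% of the windows of 100 bases of *Kng1* and 5.29% of those of *Kng2*, so a read from these stretches fits both genes. The ratio of *Kng1* to *Kng2* lay between 4.88 in *Gcn2*-/- ASNase and 6.84 in WT ASNase. Over the 5 contact system genes the median log2 difference with ASNase was 0.01 for WT, -0.13 for *Gcn2*-/- and 0.40 for *Atf4*-/- livers.

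The fibrinogen genes were among the most abundant members in every group where they could be read, and several of their values after ASNase in the knockout strains could not be read. Fibrinogen is made of 3 chains, encoded by *Fga*, *Fgb* and *Fgg*, and is both the substrate of thrombin and an acute phase protein. *Fga* was at 1348 FPKM under PBS and 1148 under ASNase in WT livers, at 1536 and 4333 in *Gcn2*-/- livers, and at 2099.9 under PBS in *Atf4*-/- livers. *Fgb* was at 2579 and 2268.5 FPKM in WT livers, and under PBS at 4043 in *Gcn2*-/- and 4919 in *Atf4*-/- livers. *Fgg* was at 2288 and 1931 FPKM in WT livers, at 3451 and 7710.0 in *Gcn2*-/- livers, and at 4087.5 under PBS in *Atf4*-/- livers.

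All 3 genes in *Atf4*-/- ASNase and *Fgb* in *Gcn2*-/- ASNase carried the status HIDATA, which Cuffdiff gives to a locus with too many fragments to process, and were listed at 0. These are the 4 of 216 member values without an estimate, and no level was read from them. Where both values existed, *Fga* and *Fgg* were 2.82-fold and 2.23-fold higher under ASNase in *Gcn2*-/- livers, with intervals so wide (0 to 11485 and 0 to 18049.9 FPKM) that neither was called. In WT livers the differences with ASNase were -0.23 for *Fga*, -0.19 for *Fgb* and -0.24 for *Fgg* on the log2 scale. The proportions of the chains hardly moved with the level: *Fgb* over *Fgg* lay between 1.13 and 1.20 in the 4 groups with both values, and *Fga* over *Fgg* between 0.445 and 0.595 in the 5 groups with both.

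The fibrinogen promoters are printed because the 3 genes lie side by side on chromosome 3, with 11026 bases between *Fgg* and *Fga* and 6513 between *Fga* and *Fgb*, and kept similar proportions in the groups where they could be read. The windows are chr3:83025903-83026202 on the plus strand for *Fga*, chr3:83049814-83050113 on the minus strand for *Fgb* and chr3:83007474-83007773 on the plus strand for *Fgg*, with the same marks as above.
Fga: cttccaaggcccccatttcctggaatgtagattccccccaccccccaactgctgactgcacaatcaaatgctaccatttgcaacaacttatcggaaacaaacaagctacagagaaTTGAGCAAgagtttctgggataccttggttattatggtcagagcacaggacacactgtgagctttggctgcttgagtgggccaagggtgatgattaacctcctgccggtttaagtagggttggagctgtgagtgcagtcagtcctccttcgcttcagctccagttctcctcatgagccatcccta
Fgb: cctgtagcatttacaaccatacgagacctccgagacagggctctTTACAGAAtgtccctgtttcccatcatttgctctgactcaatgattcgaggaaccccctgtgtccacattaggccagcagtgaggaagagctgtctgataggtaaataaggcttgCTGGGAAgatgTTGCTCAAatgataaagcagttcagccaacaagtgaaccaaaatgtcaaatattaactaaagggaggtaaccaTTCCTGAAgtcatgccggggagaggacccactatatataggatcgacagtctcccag
Fgg: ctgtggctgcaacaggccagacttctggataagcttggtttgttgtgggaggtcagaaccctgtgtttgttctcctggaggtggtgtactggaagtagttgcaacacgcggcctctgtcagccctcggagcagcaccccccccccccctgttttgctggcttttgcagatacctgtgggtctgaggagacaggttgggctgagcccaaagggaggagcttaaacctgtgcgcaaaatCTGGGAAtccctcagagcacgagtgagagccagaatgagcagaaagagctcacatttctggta
*Fgb* held CTGGGAA at -91 to -85 and, next to it, a C/EBP match at -80 to -73, besides C/EBP matches at -206 to -199 and at -7 to 0. *Fgg* held CTGGGAA at -13 to -7 and *Fga* a C/EBP match at -135 to -128. Among the members, 27 had 1 or more RefSeq windows, 29 in all, and the 8 without were *Kng1*, *Lman1*, *Plat*, *Plau*, *Plg*, *Proc*, *Thbd* and *Vwf*. CTGGGAA was in 5 of the 29 windows (17.2%, beside 11.1% of all windows), those of *F9*, *Fgb*, *Fgg*, *Kng2* and *Tfpi*. C/EBP letters were in 18 of 29 (62.1%, beside 40.7%), and the letters for C/EBP with ATF4 in 1 (3.45%), that of *Proz*. The letters for HNF1, HNF4 and ATF6 were in 0 member windows, beside 0.00913%, 0.475% and 2.01% of all windows, and 0 sites of different motifs overlapped.

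Factor XIII cross-links fibrin. Its carrier subunit, *F13b*, was at 101 FPKM under PBS and 88.4 under ASNase in WT livers, at 124 and 60.1 in *Gcn2*-/- livers, and at 108 and 39.9 in *Atf4*-/- livers. The value was lowest in *Atf4*-/- ASNase, with an interval of 21.5 to 58.3 that still overlapped that of *Atf4*-/- PBS, 53.0 to 164. The log2 differences were -0.20, -1.05 and -1.44, and none was called. With the 2 intervals combined as a root of squares, the error was 1.03 in *Gcn2*-/- and 0.99 in *Atf4*-/- livers, below the size of both differences. The catalytic subunit, *F13a1*, which platelets and macrophages make, was between 0.0434 and 0.329 FPKM.

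**Figure D4:**
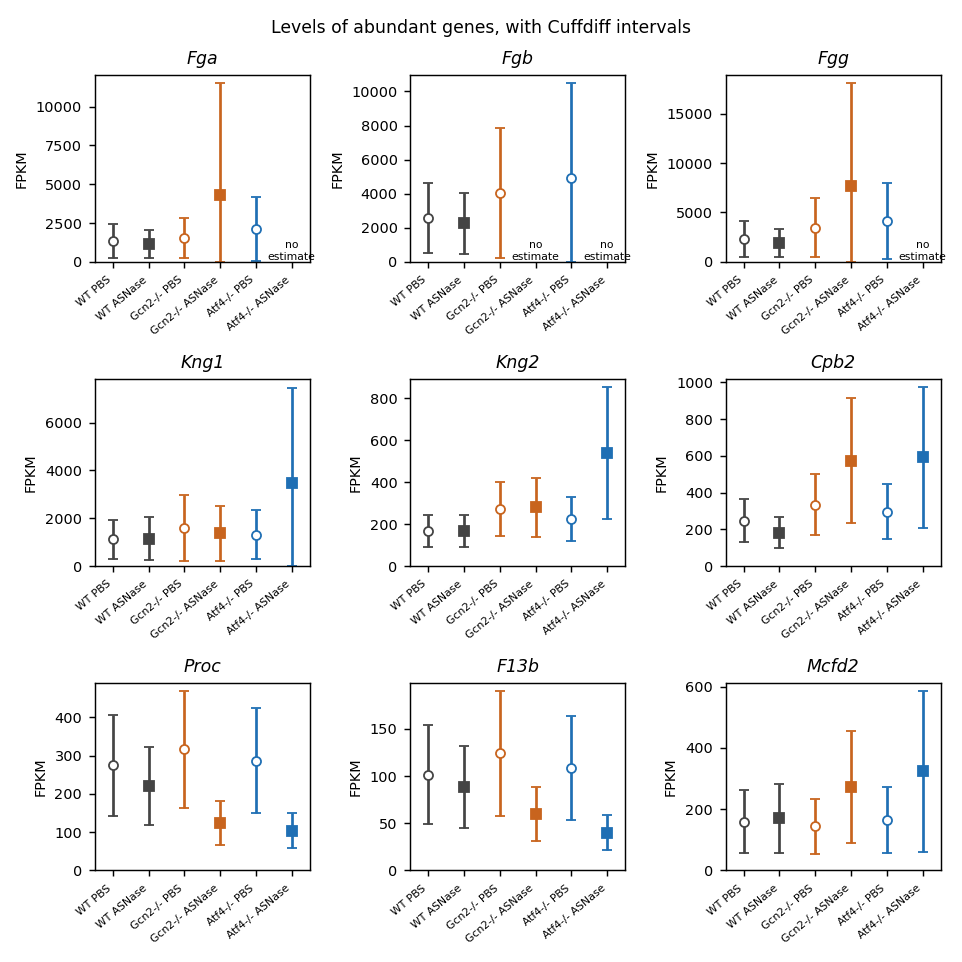
FPKM of 9 abundant members in the 6 groups, open circles for PBS and filled squares for ASNase, with vertical bars for the Cuffdiff interval of each value from 3 mice, and "no estimate" where the status was not OK. *Kng1*, *Kng2*, *Cpb2* and *Mcfd2* are highest in *Atf4*-/- ASNase and *Proc* and *F13b* lowest there, and within each strain the intervals of PBS and ASNase overlap for all 9 genes wherever both exist.

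The vitamin K dependent factors varied little between the groups. They are proteases whose precursors need carboxylation to bind membranes. *F2*, which encodes prothrombin, was at 844 FPKM under PBS and 753 under ASNase in WT livers, at 974 and 846 in *Gcn2*-/- livers, and at 1004 and 1025 in *Atf4*-/- livers. *F7* was at 52.9 and 45.1 FPKM in WT, at 64.1 and 53.2 in *Gcn2*-/- and at 75.2 and 44.7 in *Atf4*-/- livers. *F9* was at 70.0 and 67.8 FPKM in WT, at 85.9 in both *Gcn2*-/- groups and at 91.1 and 70.7 in *Atf4*-/- livers. *F10*, on which both routes to thrombin meet, was at 247 and 206 FPKM in WT, at 277 and 303 in *Gcn2*-/- and at 254 and 176 in *Atf4*-/- livers.

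None of these 4 genes was called in any of the 8 comparisons, and the highest value was at most 1.72 times the lowest, in *F10*. The largest difference with ASNase was that of *F7* in *Atf4*-/- livers, -0.75 on the log2 scale. *F7*, *F10* and *Proz* form a cluster on chromosome 8 with gaps of 1498 and 4237 bases, and all 3 had their lowest value in *Atf4*-/- ASNase. For each of them the interval there overlapped that of WT ASNase, and *F7* was at 44.7 FPKM beside 45.1 in WT ASNase.

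Of the cofactors and the initiator, *F5* alone was expressed at more than a few FPKM. It encodes factor V, the cofactor of factor X, and was at 64.8 FPKM under PBS and 74.0 under ASNase in WT livers, at 74.8 and 46.0 in *Gcn2*-/- livers, and at 94.7 and 118 in *Atf4*-/- livers. Under ASNase *F5* was 2.58-fold higher in *Atf4*-/- than in *Gcn2*-/- livers (log2 difference 1.36), with overlapping intervals of 49.8 to 187 and 22.9 to 69.1. *F8*, the cofactor of factor IX, was between 1.39 and 3.85 FPKM, lowest in the *Gcn2*-/- groups at 1.58 and 1.39. *Vwf*, the carrier of factor VIII, was between 1.95 and 3.29 FPKM.

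*F3*, which encodes tissue factor, was at 1.58 FPKM under PBS and 2.64 under ASNase in WT livers, at 3.97 and 1.18 in *Gcn2*-/- livers, and at 1.85 and 0.916 in *Atf4*-/- livers. The *Gcn2*-/- PBS group was highest, and it was the only one over 3 FPKM. Between the *Gcn2*-/- groups the log2 difference was -1.67, but the intervals of 1.93 to 6.01 and 0.375 to 1.98 just overlapped, and the gene was not called. In WT livers the log2 difference was 0.71, and the difference of -2.38 between the changes in *Gcn2*-/- and WT livers exceeded its error of 1.65. *F3* passed the limit of 3 FPKM through the *Gcn2*-/- PBS group alone, so that a lower value under ASNase in that strain was built into its entry, and the difference between strains is given as a description. With intervals combined as a root of squares *F3* was called lower in *Gcn2*-/- livers.

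The anticoagulants split by abundance. *Proc*, which encodes protein C, the protease that inactivates factors V and VIII, was at 275 FPKM under PBS and 219.8 under ASNase in WT livers, at 316 and 123 in *Gcn2*-/- livers, and at 286 and 104 in *Atf4*-/- livers. The ASNase groups of both knockout strains were below every other group, with intervals of 65.7 to 180.5 and 57.1 to 151 FPKM. The log2 differences were -0.32, -1.36 and -1.46, and the intervals overlapped those of PBS by little, from a lower bound of 163 in *Gcn2*-/- and 149 in *Atf4*-/- livers. None was called, although another scaling of the groups brought *Proc* in *Atf4*-/- livers to -1.52 and past the limits. With the 2 intervals combined as a root of squares, the error was 0.97 in *Gcn2*-/- and 0.95 in *Atf4*-/- livers, below the size of both differences. The ratio of *F2* to *Proc*, prothrombin to protein C, lay between 3.07 and 3.51 in the other 4 groups and was 6.87 in *Gcn2*-/- ASNase and 9.85 in *Atf4*-/- ASNase.

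Protein S is the cofactor of protein C, and its gene *Pros1* was between 23.5 and 36.3 FPKM with log2 differences with ASNase of -0.07, 0.01 and -0.20 in WT, *Gcn2*-/- and *Atf4*-/- livers. *Proz*, which encodes protein Z, a cofactor in the inhibition of factor X, was at 111 FPKM under PBS and 111 under ASNase in WT livers, at 139.6 and 111 in *Gcn2*-/- livers, and at 146 and 79.2 in *Atf4*-/- livers. *Tfpi*, the inhibitor of tissue factor with factor VII, was between 2.58 and 5.03 FPKM. None of the 3 was called in a comparison.

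The receptors of the protein C pathway were low and higher after ASNase in *Gcn2*-/- livers. *Procr* encodes the receptor that presents protein C to thrombin on endothelium. It was at 1.07 FPKM under PBS and 0.897 under ASNase in WT livers, at 0.692 and 6.51 in *Gcn2*-/- livers, and at 1.33 and 2.08 in *Atf4*-/- livers. The *Gcn2*-/- ASNase value, with an interval of 1.93 to 11.1, stood above the other 5 and rose 9.41-fold from PBS (log2 difference 3.06). It was also called higher than in WT ASNase (2.73), where the bounds of 1.93 and 1.91 FPKM nearly met, and this call was lost at another scaling of the groups. The change with ASNase differed by 3.30 between *Gcn2*-/- and WT livers, with an error of 2.88, and by -2.45 between *Atf4*-/- and *Gcn2*-/- livers, less than its error of 2.56.

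*Thbd* encodes thrombomodulin, which turns thrombin into the activator of protein C. It was at 1.73 FPKM under PBS and 2.30 under ASNase in WT livers, at 0.827 and 3.08 in *Gcn2*-/- livers, and at 1.83 and 3.90 in *Atf4*-/- livers. ASNase held the higher value in each strain. The rise in *Gcn2*-/- livers was 3.73-fold (log2 difference 1.78), from an interval of 0.316 to 1.34 to one of 1.64 to 4.52. It started from the lowest value of the 6 groups, and the change did not differ from that in WT livers by more than its error (1.39 with an error of 1.42). With a pseudocount of 1 the log2 difference was 1.16, below the limit. Both *Procr* and *Thbd* passed the limit of 3 FPKM in *Gcn2*-/- livers through the ASNase group alone, so that an eligible value had to be a high one there, and the strain difference of *Procr* is likewise a description. The *Procr* promoter is shown beside this result (chr2:155750967-155751266, plus strand, marks as above).
Procr: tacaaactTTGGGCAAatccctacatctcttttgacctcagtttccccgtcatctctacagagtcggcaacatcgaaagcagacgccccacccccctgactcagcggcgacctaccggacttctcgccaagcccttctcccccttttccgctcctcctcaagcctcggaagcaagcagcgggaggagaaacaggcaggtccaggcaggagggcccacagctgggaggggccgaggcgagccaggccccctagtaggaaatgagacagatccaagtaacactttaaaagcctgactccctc
It held 1 match, a C/EBP one from -242 to -235.

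Both receptors are known endothelial genes, and a bulk liver value cannot tell fewer or more cells of a type from less or more RNA per cell. The 11 liver endothelial markers examined were all over 1 FPKM in every group and summed to between 157 and 242 FPKM. Between the *Gcn2*-/- groups the sum was 157 under PBS and 166 under ASNase, with a median log2 difference of 0.32 over 10 eligible markers and 0 called. The 9 platelet and megakaryocyte markers summed to between 3.85 and 5.38 FPKM in every group. The 11 Kupffer cell and macrophage markers with a row summed to 418 FPKM under PBS and 230.4 under ASNase in WT livers, to 273 and 341 in *Gcn2*-/- livers, and to 463 and 310.3 in *Atf4*-/- livers. With ASNase 11 of 11 were below 0 in WT livers (median log2 difference -0.77), 4 of 11 in *Gcn2*-/- livers (0.33) and 10 of 11 in *Atf4*-/- livers (-0.52). Against this, *Marco*, a scavenger receptor gene, rose from 8.32 to 118 FPKM in *Gcn2*-/- and from 9.22 to 67.3 in *Atf4*-/- livers, and *Cd5l* fell from 91.6 to 31.3 in *Atf4*-/- livers. The 9 stellate and fibroblast markers summed to between 99.6 and 161 FPKM, with *Col3a1*, a fibrillar collagen gene, called lower with ASNase in *Atf4*-/- livers, and the 6 bile duct markers to between 20.7 and 40.9 FPKM with 0 called. The 9 neutrophil markers summed to 1.65 FPKM in *Gcn2*-/- ASNase, where 4 were at 0 and *S100a9* was called lower than under PBS, and to between 5.90 and 16.7 in the other groups. Their part in the levels of *Procr* and *Thbd* was not tested.

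Of the fibrinolytic genes made in hepatocytes, none was called in a comparison. *Plg*, which encodes plasminogen, was at 769.8 FPKM under PBS and 689 under ASNase in WT livers, at 989 and 816 in *Gcn2*-/- livers, and at 1118 and 1104 in *Atf4*-/- livers. *Hrg*, which encodes a glycoprotein that binds plasminogen and heparin, was at 408 and 449 FPKM in WT, at 448 and 523 in *Gcn2*-/- and at 542 and 631 in *Atf4*-/- livers. *Habp2*, which encodes a protease that cleaves factor VII and prourokinase, was at 89.7 and 74.9 FPKM in WT, at 101 and 85.3 in *Gcn2*-/- and at 100.5 and 48.3 in *Atf4*-/- livers. The largest difference with ASNase among these 3 genes was that of *Habp2* in *Atf4*-/- livers, -1.05 on the log2 scale.

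*Cpb2* encodes the carboxypeptidase that slows fibrinolysis after its activation by thrombin. It was at 248 FPKM under PBS and 182 under ASNase in WT livers, at 333 and 575 in *Gcn2*-/- livers, and at 297 and 592 in *Atf4*-/- livers. The value under ASNase was lower in WT livers and higher in both knockout strains, with log2 differences of -0.44, 0.79 and 0.996. Under ASNase it was 3.15-fold higher in *Gcn2*-/- and 3.25-fold higher in *Atf4*-/- than in WT livers, log2 differences of 1.65 and 1.70 that were past the fold limit. The intervals of 233 to 916 and 208 to 976 overlapped that of WT ASNase, 100.2 to 265, so that *Cpb2* was not called. The activators of plasminogen and their receptor were near the floor of the table. *Plat* was between 0.186 and 0.452 FPKM, *Plau* between 0.231 and 0.956 and *Plaur*, the urokinase receptor gene, between 0.182 in *Gcn2*-/- PBS and 2.60 in *Atf4*-/- ASNase. In *Atf4*-/- livers *Plaur* was at 0.376 FPKM under PBS, a log2 difference with ASNase of 2.51. Its intervals of 0.00994 to 0.742 and 0.817 to 4.39 did not overlap. *Plaur* was not eligible, because no value was over 3 FPKM, and it passed the other limits of a call. In *Gcn2*-/- livers it reached 1.30 FPKM under ASNase, with overlapping intervals.

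Among the genes that process clotting factors, none was called. *Ggcx*, which encodes the carboxylase of the vitamin K dependent factors, was between 11.2 and 19.0 FPKM, lowest in *Atf4*-/- ASNase. *Vkorc1*, which encodes the reductase that returns vitamin K to its active form and is the target of warfarin, was at 214 FPKM under PBS and 182 under ASNase in WT livers, at 274 and 179.9 in *Gcn2*-/- livers, and at 209 and 122 in *Atf4*-/- livers. The second *Vkorc1* row, named *Gm21974* in GENCODE M21, overlaps *Prss53* and *Vkorc1* and held between 0.545 and 1.29 FPKM.

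*Lman1* and *Mcfd2* encode the cargo receptor that carries factors V and VIII from the endoplasmic reticulum (ER) to the Golgi. *Lman1* was at 71.8 FPKM under PBS and 81.1 under ASNase in WT livers, at 73.1 and 100.2 in *Gcn2*-/- livers, and at 70.1 and 87.8 in *Atf4*-/- livers. *Mcfd2* was at 159 and 170.4 FPKM in WT, at 143 and 272 in *Gcn2*-/- and at 164 and 324 in *Atf4*-/- livers. Both had the higher value under ASNase in each strain, and their ratio, *Mcfd2* over *Lman1*, was highest in *Atf4*-/- ASNase at 3.69, beside 1.96 to 2.72 in the other groups. Of 17 eligible genes of ER to Golgi transport on a separate list, 0 were called with ASNase in any strain, and the median log2 difference was -0.06 for WT, 0.26 for *Gcn2*-/- and 0.39 for *Atf4*-/- livers.

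Under PBS neither deletion moved a member past the limits. Of 29 eligible members 0 were called in *Gcn2*-/- against WT livers, beside 1.04% of 8920 genes called and 1.2% with separate intervals. Of 28 members 0 were called in *Atf4*-/- against WT livers, beside 1.12% of 9039 genes called and 1.28% with separate intervals. The values leaned upward: 24 of 29 members were higher in *Gcn2*-/- PBS than in WT PBS and 23 of 28 were higher in *Atf4*-/- PBS, with median log2 differences of 0.21 and 0.23, beside 0.06 and 0.00 over all eligible genes. These comparisons share the WT PBS values. The largest were those of *F3* (1.27) and *F8* (-1.04) in *Gcn2*-/- livers and of *Fgb* (0.93) in *Atf4*-/- livers.

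Under ASNase *Procr* was the 1 member of 28 called between *Gcn2*-/- and WT livers, 3.57% of the members beside 4.41% of 9423 genes called and 4.87% with separate intervals. It passed the limit of 3 FPKM in this comparison through the *Gcn2*-/- value alone. Between *Atf4*-/- and WT livers *F11* and the row named *Klkb1* were called of 26 members, 7.69% beside 8.25% of 9577 genes called and 9.01% with separate intervals. Between *Atf4*-/- and *Gcn2*-/- livers *F11* was called of 26 members, 3.85% beside 3.19% of 9355 genes called and 3.61% with separate intervals. The shares of members called were near those of all genes in each of the 3 comparisons. Member medians were 0.25, 0.09 and -0.14 on the log2 scale, beside 0.05, 0.07 and 0.00 over all eligible genes.

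The comparisons with WT livers come with a difference in tissue. The 15 skeletal muscle markers summed to 1057 FPKM under PBS and 1494 under ASNase in WT livers. The same sum was 10.7 and 12.8 FPKM for *Gcn2*-/- and 88.1 and 197 FPKM for *Atf4*-/- livers, PBS first. All hepatocyte markers with an estimate were over 1 FPKM in every group, with *Alb* at HIDATA in all 6 groups and *Ttr* between 854 and 5131 FPKM. These markers, 10 under PBS and 11 under ASNase in each strain, summed to 37556 and 32271 FPKM in WT livers. The same sum was 37160 and 21606 FPKM in *Gcn2*-/- livers and 32260 and 13438 FPKM in *Atf4*-/- livers, PBS first. In *Gcn2*-/- PBS 10 of 11 endothelial markers were lower than in WT PBS (median log2 difference -0.90), as were 10 of 11 Kupffer cell and macrophage markers (-0.72), with 0 called in either list, beside the -1.04 of *F8*, an endothelial gene. In *Atf4*-/- PBS these medians were -0.0026 and 0.08. Of 10 eligible hepatocyte markers 0 were called with ASNase, and their median log2 differences were -0.01 for WT, -0.24 for *Gcn2*-/- and -0.89 for *Atf4*-/- livers. The part of these differences in the member values was not tested.

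The plasma inhibitors that are no members were examined as a list of 11. With ASNase 0 of 8 eligible inhibitors were called in WT livers, 1 of 9 rose in *Gcn2*-/- livers and 0 of 9 were called in *Atf4*-/- livers. *A2m*, a broad protease inhibitor gene, rose from 0.0417 to 4.96 FPKM in *Gcn2*-/- livers. It passed the limit of 3 FPKM there through the ASNase group alone, so that a rise was built into its entry. With no FPKM limit *A2m* was called higher in *Atf4*-/- livers as well. *Serpina10* encodes the inhibitor of factor X that works with protein Z, and its ratio to *Proz* was between 0.995 and 1.48 in the other 4 groups, 5.07 in *Gcn2*-/- ASNase and 10.2 in *Atf4*-/- ASNase. *Serpina10* was called higher in both knockout strains than in WT livers under ASNase, at 563 and 808 against 111 FPKM. The median difference of the list with ASNase was -0.26 for WT, -0.32 for *Gcn2*-/- and -0.0024 for *Atf4*-/- livers on the log2 scale.

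Of 13 eligible genes on a list of other clotting and fibrinolysis genes, 0 were called with ASNase in any strain, with medians of -0.13, 0.39 and -0.0023. Under ASNase *Fgl1*, a fibrinogen-like gene, was called higher in *Gcn2*-/- (2960.0 FPKM) and *Atf4*-/- livers (3092) than in WT livers (223), and *Anxa2* and *S100a10*, which encode the cell surface complex that binds plasminogen, were lower in *Atf4*-/- (4.85 and 35.1 FPKM) than in *Gcn2*-/- livers (17.9 and 104). Of 13 regulators of liver genes, *Cebpd* was the 1 called with ASNase, from 3.35 to 25.6 FPKM in *Gcn2*-/- and from 6.80 to 37.1 in *Atf4*-/- livers. *Cebpb*, also on this list, was not called by the rule used here. The study, by its q value, reported *Cebpb* as higher with ASNase in *Gcn2*-/- livers only. Acute phase genes, of which fibrinogen is one by function, were called higher for 3 of 12 in *Gcn2*-/- and 2 of 14 in *Atf4*-/- livers, with medians of 2.76 and 2.08 (*Apcs*, *Orm3* and *Saa4*, then *Orm3* and *Saa3*), beside -0.28 and 0 of 15 called in WT livers. Of the 16 acute phase genes, 4 had no estimate in *Gcn2*-/- ASNase and 2 had none in *Atf4*-/- ASNase, as was the case for fibrinogen. Under PBS the list already stood higher in both knockout strains than in WT livers. In *Gcn2*-/- PBS 13 of 15 were higher (median 1.33), with *Saa3* and *Orm2* called. In *Atf4*-/- PBS 16 of 16 were higher (median 1.21), with *Lcn2*, *Orm3* and *Orm2* called. Of all eligible genes 1.04% and 1.12% were called in these comparisons.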

How the data were processed

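RNA-Seq was done on poly-A RNA of 18 mouse livers, 6 groups of 3. The authors aligned reads to mm10 with TopHat and estimated expression with Cuffdiff, tools also named in the submitters' processing notes. The deposited table holds FPKM values, 1 for each gene and group estimated by the authors from the 3 libraries together, with a lower and an upper bound of its interval, also in FPKM, and a status. Each value column was assigned to its group by name and label, and 0 columns stayed unassigned. The table carries no counts, so the depth behind each value is unknown from it, and the precision was taken from the intervals.

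Members were matched by symbol. Groups were compared on log2(FPKM + 0.1) by the limits given above. The limits of 3 FPKM and of 1.5 are those of the study's methods, with separate intervals in place of its q value. With ASNase 80, 340 and 699 genes were called in WT, *Gcn2*-/- and *Atf4*-/- livers, fewer than the study reported in each strain. A member not called here may thus be on the study's lists, with which the calls are not compared here. The linear model planned for single libraries could not be fitted. Responses were taken to differ between strains when the log2 changes differed by more than 1.5 and by more than the root of the summed squared distances from value to upper bound of the 4 values on the log2 scale. Every member was described by its role, with values in all groups for those over 3 FPKM or by its range where low. Genes that are no members were named only where they were on a list and called, or where a result turned on them, and not every called gene of a list was named. *Cebpb* was named because the study reported it. *Cyp4v3* was added after its row was seen to share a locus with *Klkb1*. The members and the lists of inhibitors, other clotting genes, transport genes, regulators, acute phase genes and markers (hepatocyte, endothelial, macrophage, platelet, stellate, bile duct, neutrophil and muscle) were chosen with earlier results of these data known. In the list of inhibitors 1 gene is not reported here.

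Coordinates are those of GENCODE M21, in which all 36 member rows were found by identifier and 34 had the same name. Promoter windows are RefSeq windows on GRCm38.p6. The rules were run on simulated data with changes larger than nearly all those seen in the members. That run cannot show how often smaller changes are missed. Python 3.11.15, numpy 2.4.6, pandas 2.3.3 and matplotlib 3.10.9 were used. Alternatives were another pseudocount, no FPKM limit or one of 10, a log2 limit of 1, a combined interval and median-ratio scaling. Another, added after the values were seen, left out the *Klkb1* row and both *Vkorc1* rows, which overlap other genes. The rows of *F5*, *F8*, *Kng2* and *Cpb2*, which also overlap a gene on the same strand, were kept.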

Additional observations from a re-analysis of the deposited data

Results flagged for a closer look

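The change with ASNase differed between strains by more than its error and by more than 1.5 on the log2 scale for 4 members. For *F11* the change in *Atf4*-/- livers was -2.80 apart from that in WT livers and -3.12 apart from that in *Gcn2*-/- livers. For *Klkb1*, whose row overlaps *Cyp4v3*, the change in *Atf4*-/- livers was -4.19 apart from that in WT livers. For *Procr* the change in *Gcn2*-/- livers was 3.30 apart from that in WT livers, and for *F3* it was -2.38 apart. *Procr* and *F3* passed the limit of 3 FPKM only through the 1 group where each was high (*Gcn2*-/- ASNase and *Gcn2*-/- PBS), so a change in *Gcn2*-/- livers was built into their entry, and both values are descriptions. These were 2 of 30 members between *Gcn2*-/- and WT, 2 of 26 between *Atf4*-/- and WT and 1 of 28 between *Atf4*-/- and *Gcn2*-/- livers, beside 5.42%, 7.92% and 4.58% of all eligible genes. The error rests on the intervals of pooled values, and the differences have no test over mice.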

How the results depend on the processing

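With intervals combined as a root of squares, 3 members were called with ASNase in *Gcn2*-/- livers (*F3*, *Procr*, *Thbd*), 2 members were called between *Gcn2*-/- and WT livers under ASNase (*Procr*, *Cpb2*), 4 between *Atf4*-/- and WT (*F11*, *Klkb1*, *Kng2*, *Cpb2*) and 2 between *Atf4*-/- and *Gcn2*-/- (*F11*, *Klkb1*). Separate intervals then numbered 5 with ASNase in *Gcn2*-/- and 6 in *Atf4*-/- livers, with *F13b* and *Proc* among them in both strains. They numbered 2, 6 and 3 in those comparisons between strains under ASNase and 1 between *Gcn2*-/- and WT under PBS (*F3*). With intervals combined in this way, 8 and 6 acute phase genes were called higher with ASNase in *Gcn2*-/- and *Atf4*-/- livers. So were 2 other clotting genes in *Gcn2*-/- and 1 in *Atf4*-/- livers, and 2 inhibitors in *Gcn2*-/- (*A2m*, *Serpina10*) and 1 in *Atf4*-/- livers (*Serpina10*). In *Atf4*-/- livers 1 inhibitor was called lower (*Serpind1*). With FPKM over 10, 0 members were called or had separate intervals in *Gcn2*-/- livers against PBS or WT ASNase, 0 changes differed between *Gcn2*-/- and WT livers, and 0 inhibitors were called in *Gcn2*-/- livers. A pseudocount of 1 left 1 member called with ASNase in *Gcn2*-/- livers (*Procr*) and gave 2 changes that differed between *Atf4*-/- and *Gcn2*-/- livers. Median-ratio scaling left 0 called or separate between *Gcn2*-/- and WT livers under ASNase. With no FPKM limit 1 inhibitor was called higher in *Atf4*-/- livers (*A2m*). Without the *Klkb1* row and both *Vkorc1* rows, 1 member was called in *Atf4*-/- livers against PBS and 1 against WT ASNase (*F11*).

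No log2 difference of a single member that was followed under these alternatives changed its direction. The median over the members between *Atf4*-/- and WT livers under ASNase did change sign, from 0.09 to -0.01 with no FPKM limit. With this median included, the other 321 counts and medians kept within 1.5 times or within their error. Only 1 value per group was used, so leaving out each replicate was not run. No paired analysis was possible because the value columns carry no replicate numbers. The depth of single libraries was not used, and differences smaller than the intervals could not be told from their error. The sex of the mice, which was unevenly spread over the groups, cannot be told apart from the group.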
